A study of Solanum lycopersicum with 4 samples.

Results

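On chromosome 3 of the tomato M82 assembly, 7 genes spread over 382.3 kb had from 14 to 268 RNA-seq counts per library in leaves of *ddm1* and next to none in wild-type (WT) leaves. They are Solyc00g011560.1, Solyc00g032030.1, Solyc00g500353.1, Solyc00g500096.1, Solyc00g500095.1, Solyc00g500091.1 and Solyc00g011660.1, here called the block genes, out of 35821 genes in the count table. They were selected on their counts, which were near 0 in WT, and on their place and plus strand, so the difference between *ddm1* and WT is described for them and not tested. RNA was sequenced from the fourth leaf of 1-month-old M82 plants. There were 2 libraries of the *Slddm1a/Slddm1b* double mutant (*ddm1*), a knock-out of both tomato DDM1 genes, and 2 libraries of WT M82. The paper describes a poly(A) workflow for its RNA-seq libraries and a separate kit for total RNA, and the sample titles do not name the type. The libraries held from 5462981 to 6887057 counts, and within each genotype the replicates differed by more than the sampling noise. The 2 biological replicates of each genotype bound the precision of every value below.

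DDM1 is a chromatin remodeler that gives DNA methyltransferases access to nucleosome-wrapped DNA, above all in heterochromatin, where transposable elements are kept silent by DNA methylation and repressive histone marks. In tomato, according to the paper, losing both DDM1 genes lowers CG and CHG methylation of transposons in gene-poor regions. Methylation in the CHH context rises there (H stands for A, T or C). In plants that lose DDM1, some sequences that are silent in the wild type become transcribed. The comparison of *ddm1* with WT leaves asks which genes change expression when DDM1 is lost. In the tomato gene nomenclature, the prefix Solyc00g was given to genes that an earlier reference assembly had not placed on a chromosome. All 7 block genes carry this prefix and lie on chromosome 3 in the M82 assembly. The count table and the gene name table used here give them no name or function, so no role is stated for any of them. For the same reason the DDM1 genes and leaf marker genes were not analysed here.

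Reading along the chromosome, the first 3 block genes lay within 50 kb of each other. Solyc00g011560.1 (3080 bp, from 6431754 to 6434833) had 50 and 42 counts in *ddm1* against 0 and 0 in WT. Solyc00g032030.1, at 429 bp the shortest of the 7 (from 6475388 to 6475816), had 14 and 18 counts in *ddm1* against 0 and 0 in WT. Solyc00g500353.1 (2642 bp, from 6478925 to 6481566) had 219 and 268 counts in *ddm1* against 1 and 0 in WT. Most of the reads of these 3 genes were thus counted in Solyc00g500353.1. In whole leaves, fewer expressing cells and less RNA per cell cannot be told apart.

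The next pair stood near the middle of the block. Solyc00g500096.1, the longest at 3144 bp (from 6600036 to 6603179), had 64 and 65 counts in *ddm1* against 0 and 0 in WT. Solyc00g500095.1 (1824 bp, from 6605852 to 6607675), which starts 5816 bp downstream of the start of Solyc00g500096.1, had 217 and 257 counts in *ddm1* against 6 and 0 in WT. It was the only block gene with more than 3 counts in a WT library, and all 6 came from WT replicate 1. At the far end, Solyc00g500091.1 (2782 bp, from 6727624 to 6730405) had 66 and 68 counts in *ddm1* against 0 and 0 in WT. Solyc00g011660.1 (1290 bp, from 6812725 to 6814014) had 32 and 34 counts in *ddm1* against 0 and 0 in WT. For each of the 7 genes the lower *ddm1* library exceeded the higher WT library, so that the genotypes did not overlap. This was also so, in counts scaled to the library size (CPM), for 40.1% of the 21289 genes tested across the table, and nothing is read from the count among genes chosen for this contrast.

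**Figure D1:**
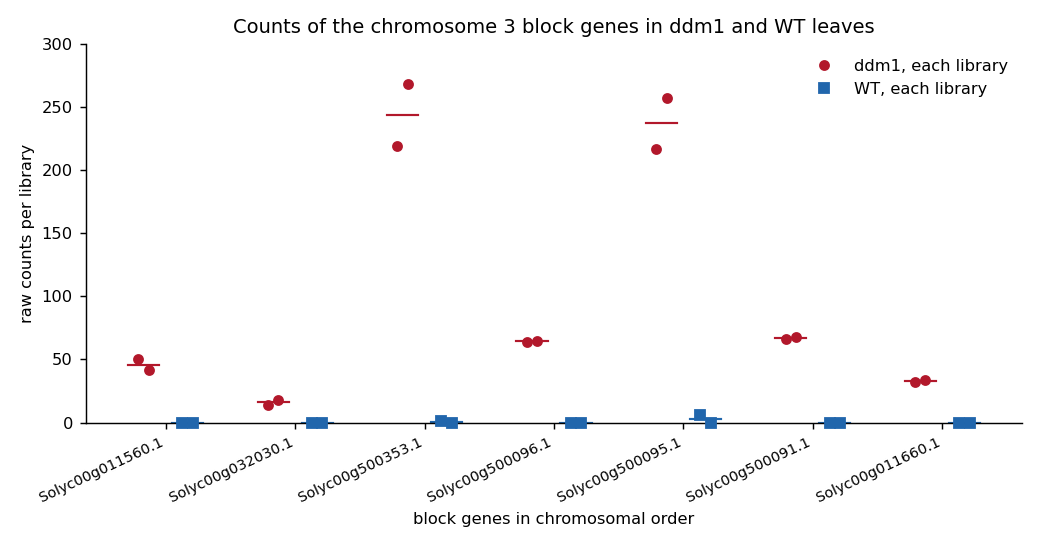
Raw counts (y axis) of the 7 block genes in chromosomal order (x axis), with the 2 *ddm1* libraries as circles left of the 2 WT libraries as squares and a line at each mean. The *ddm1* points run from 14 to 268 counts, and the WT points lie at 0 except for 1 count in Solyc00g500353.1 and 6 in Solyc00g500095.1.

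The size of the difference is bounded by the depth in WT, because 5 of the 7 genes had 0 counts in both WT libraries. A count of 0 allows up to 3 counts per library, which is 0.522 CPM in WT replicate 1 and 0.565 CPM in WT replicate 2. Against 3 counts in each WT library, expression was at least 18.0-fold higher in *ddm1* for Solyc00g500091.1, at least 17.3-fold for Solyc00g500096.1 and at least 12.4-fold for Solyc00g011560.1. The bounds were at least 8.84-fold for Solyc00g011660.1 and at least 4.27-fold for Solyc00g032030.1, whose few counts leave the least room. For Solyc00g500353.1, with 1 count in WT, the ratio of the summed counts scaled for depth was 392 (exact 95% interval 70.0 to 15515). For Solyc00g500095.1, with 6 counts in WT, it was 63.6 (exact 95% interval 29.0 to 174). The bounds take the mean of *ddm1* as it is and allow for counting error in WT only, and the intervals cover counting error in both genotypes. Neither covers the spread between plants. Since the genes were chosen for counts near 0 in WT, which favours high ratios, these values are a description and the intervals are no test.

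Added together, the 7 genes held 662 and 752 counts in *ddm1* against 7 and 0 counts in WT. Their summed expression was 103 ± 4.81 CPM in *ddm1* and 0.610 ± 0.862 CPM in WT (SD, n = 2 each). All 7 WT counts came from WT replicate 1, so that without this library the block genes were at 0 in WT. Solyc00g500353.1 and Solyc00g500095.1 gave most of the *ddm1* sum, which was 67.5 CPM without Solyc00g500353.1 and 68.4 CPM without Solyc00g500095.1.

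Per unit of length, 2 block genes stood above the other 5 in *ddm1*. Length was the whole annotated span, introns included, so these values and their order also depend on intron content. Solyc00g500095.1 stood highest with 18.9 ± 1.44 CPM per kb, followed by Solyc00g500353.1 with 13.4 ± 1.33 CPM per kb (SD, n = 2 each). The remaining 5 genes lay lower, from 5.42 ± 0.726 CPM per kb in Solyc00g032030.1 to 2.18 ± 0.362 CPM per kb in Solyc00g011560.1 (SD, n = 2 each). Between them stood Solyc00g011660.1 with 3.73, Solyc00g500091.1 with 3.51 and Solyc00g500096.1 with 2.99 CPM per kb. With the counts of both *ddm1* libraries pooled, the exact 95% Poisson intervals of the highest gene, the second and the third did not overlap, whereas those of the other neighbours in this order did. The values of the 2 libraries overlapped between no neighbours. The intervals cover counting error only, and the replicates differed by more than that over all genes, so the intervals are too narrow. With 2 libraries they do not settle the order of the upper genes, and the order of neighbours among the lower 5 is still less settled.

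The highest mean per kb was 8.65 times the lowest. Set against all tested genes in *ddm1*, whose median was 8.83 CPM per kb, the block genes reached from the 15.05th to the 75.4th percentile. Per kb of gene span, Solyc00g500095.1 and Solyc00g500353.1 thus had levels above the median of the genes tested, and the other 5 had levels below it.

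The 2 *ddm1* libraries gave similar values for these genes. The log2 ratio of replicate 1 to replicate 2 in CPM ranged from -0.27 in Solyc00g032030.1 to 0.34 in Solyc00g011560.1, and was 0.00104 in Solyc00g011660.1. For each of the 7 genes it lay between the 5th and the 95th percentile of tested genes whose mean *ddm1* count was within 2-fold of its own. Over all chromosomes, 1233 other genes had at most 3 counts in each WT library and at least 10 in each *ddm1* library. Some of these genes lie near or between the block genes. Among the 1233 genes the ratio had a median of 0.17 and ran from -0.91 at the 5th to 1.22 at the 95th percentile. The median expression of the block genes in *ddm1* was 3.73 CPM per kb, against 3.09 CPM per kb for these other genes.

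**Figure D2:**
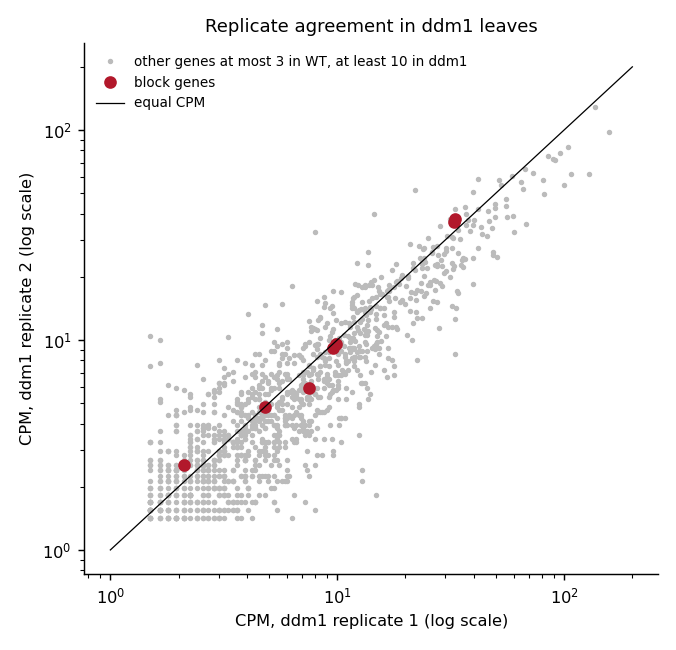
CPM in *ddm1* replicate 1 (x axis, log scale) and *ddm1* replicate 2 (y axis, log scale) of the block genes (large points) and of 1233 other genes with at most 3 counts in each WT library and at least 10 in each *ddm1* library (small points), with a line of equal CPM. The block genes lie close to the line, between log2 ratios of -0.27 and 0.34.

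The block genes were not alone in their interval. From 6.3 to 6.9 Mb of chromosome 3 the annotation holds 33 genes, the 7 block genes and 26 others. Of the 26, 9 had 0 counts in all 4 libraries, and 7 had counts too low to be tested, each with 0 counts in WT and between 1 and 22 counts summed over both *ddm1* libraries. The other 10 entered the quasi-likelihood test of edgeR, with Benjamini-Hochberg adjustment over the whole table, and 4 of them were up-regulated in *ddm1* and 0 down-regulated. Across the table, up-regulated genes made up 25.3% and down-regulated genes 23.7% of those tested. Of the 10, 0 were lower in *ddm1* at an unadjusted p under 0.05, and 0 by DESeq2. In 3 of the 4 up-regulated genes WT had 0 counts in both libraries, so that they passed the filter on low counts through *ddm1* alone and had to differ, and no p-value is given for them.

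Solyc03g042560.3, which had the largest fitted rise of these 10 genes, lies outside the block on its left, from 6356135 to 6358916. It had 345 and 409 counts in *ddm1* against 0 and 0 in WT, an excess in *ddm1* of at least 101-fold against 3 counts in each WT library. Its level per length in *ddm1*, 19.7 ± 1.51 CPM per kb (SD, n = 2), differed from that of Solyc00g500095.1 by less than the spread between replicates. Next to it, the gene from 6350365 to 6353446 was expressed in both genotypes, with 78 and 113 counts in *ddm1* against 10 and 13 in WT, and a log2 fold change of 2.72 (adjusted p = 0.00158, edgeR).

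Among the 10 other genes between the first and the last block gene, 2 had at least 10 counts in each *ddm1* library, and all 10 had 0 counts in WT. They were singled out after their values were seen. The gene from 6734880 to 6735171, on the plus strand 4474 bp downstream of Solyc00g500091.1, had 84 and 86 counts in *ddm1* against 0 and 0 in WT. It shares position, strand and pattern with the block genes but is not among the 7, which all bear the Solyc00g prefix. The gene from 6557023 to 6557961 had 11 and 11 counts in *ddm1* against 0 and 0 in WT, just under the filter that admitted Solyc00g032030.1 with 14 and 18. To the right of the block, the gene from 6851053 to 6853736 had 21 and 24 counts in *ddm1* against 0 and 0 in WT. The annotated genes next to the block were at 0 in all 4 libraries, Solyc00g500097.1 on the left and Solyc00g011670.1 on the right. Solyc00g011670.1 was also the only gene of the interval on the minus strand.

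At both edges of the interval the values of the genotypes lay closer together. The 6 tested genes that did not pass the threshold had from 63 to 680 counts per WT library and log2 fold changes between -0.04 and 0.32 (adjusted p from 0.1155 to 0.850, edgeR). Of these, 4 lie at the left edge, starting between 6308350 and 6322436, and 2 at the right edge, starting at 6871197 and 6892462. For example, the gene from 6314882 to 6316775 had 916 and 968 counts in *ddm1* against 680 and 640 in WT. The gene from 6871197 to 6876556 had 343 and 334 counts in *ddm1* against 254 and 227 in WT. Scaled to library size the means lay closer, at 137.2 against 119.5 CPM and 49.4 against 43.5 CPM.

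**Figure D3:**
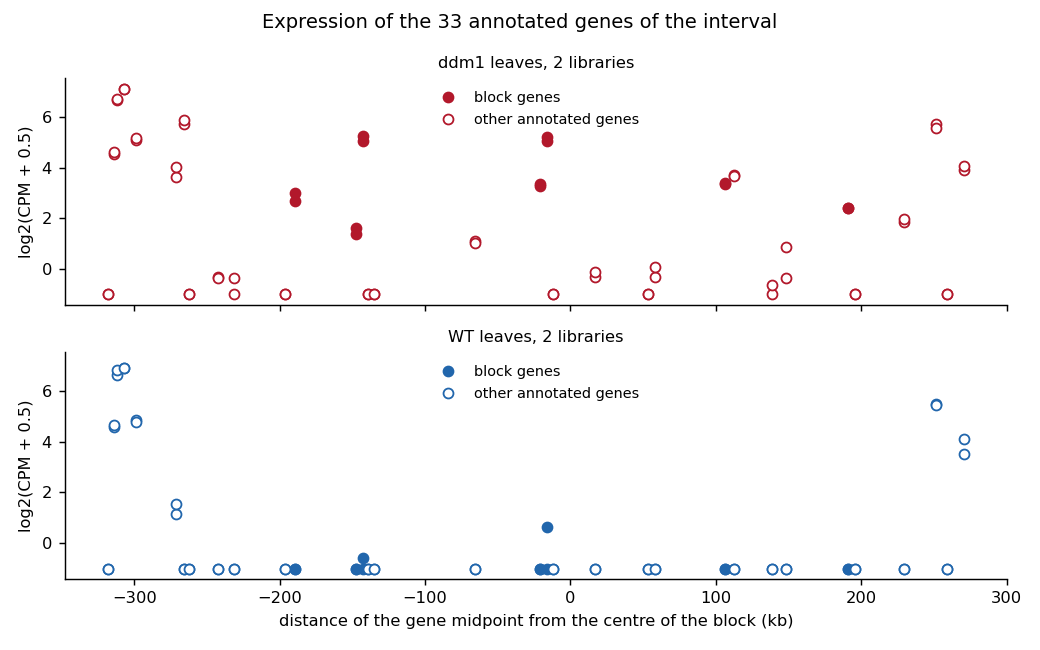
Expression as log2(CPM + 0.5) (y axis) of the 33 annotated genes from 6.3 to 6.9 Mb of chromosome 3 against the distance of their midpoint from the centre of the block in kb (x axis), for the 2 *ddm1* libraries (upper panel) and the 2 WT libraries (lower panel), with block genes filled and other genes open. In WT the genes between the expressed edges lie at or near 0 counts, and in *ddm1* both filled and open points rise above this level there.

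Between the expressed genes at both edges, 24 annotated genes in a row, from 6356135 to 6853736 (497.6 kb), had fewer than 10 counts in each WT library. Together they held 1138 and 1296 counts in *ddm1* against 7 and 0 in WT, and the block genes made up 58.1% of these *ddm1* counts. Of the 24 genes, 17 had a count in *ddm1* and 2 in WT, and 7 were at 0 in all 4 libraries. At least 10 counts in each *ddm1* library were reached by 11 of the 24, the 7 block genes and 4 others.

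Long rows of genes with few WT counts were found elsewhere, but held fewer genes with at least 10 counts in each *ddm1* library and at most 3 in each WT library. Over all chromosomes, 30 rows were at least 24 genes long, and the longest had 76 genes. Their median number of genes with at most 3 counts in each WT library and at least 10 in each *ddm1* library was 1. The row around the block had 10 such genes, and the highest number in the other 29 was 5, in a row of 29 genes on chromosome 10. The block had been chosen for this contrast, so its place in this order is a description.

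The same holds for windows of equal length. Of 35479 genes placed on chromosomes, 3.49% had at most 3 counts in each WT library and at least 10 in each *ddm1* library, and 6 of the 7 block genes were among them. With windows of 600 kb moved in steps of 100 kb, 4042 of 8024 windows held 0 such genes. The window from 6.3 to 6.9 Mb held 10 of 33, the highest number of any window, which 4 other windows also reached. These were 2 overlapping windows on chromosome 3 starting at 53900001 and 54000001, 1 on chromosome 7 with 10 of 81 genes, and 1 on chromosome 4 with 10 of 14 genes. With 1 Mb windows the block's window held 10 and another window 12, and without *ddm1* replicate 1, *ddm1* replicate 2 or WT replicate 1 other windows held up to 11, 11 and 14.

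**Figure D4:**
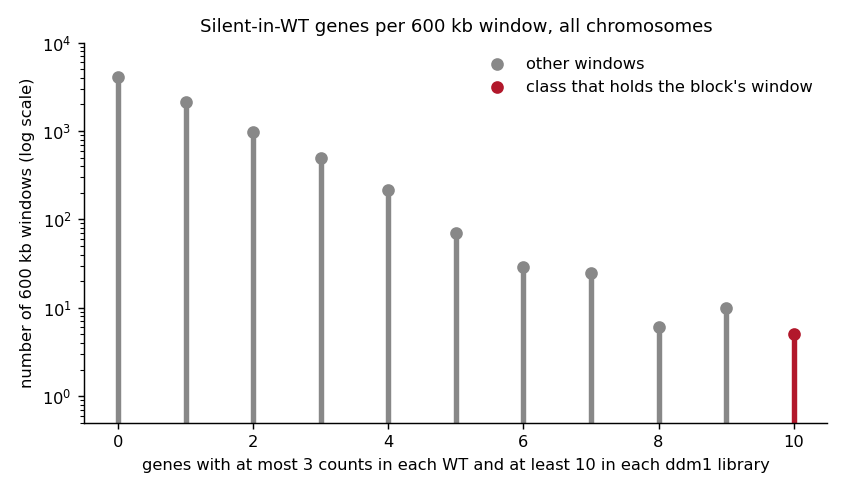
Number of 600 kb windows over all chromosomes (y axis, log scale) by the number of genes with at most 3 counts in each WT library and at least 10 in each *ddm1* library that they hold (x axis). Of 8024 windows 4042 hold 0 such genes, and the block's window is among the 5 that hold 10.

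The Solyc00g prefix was also found outside the interval. The annotation has 241 Solyc00g genes on chromosomes, 20 of them in the interval. At most 3 counts in each WT library and at least 10 in each *ddm1* library were found for 7 of the 20 in the interval (35.0%, 6 of them block genes) and for 2 of the 221 outside it (0.905%). The block genes were chosen for this pattern, which largely fixes the first share, and nothing is read from the difference.

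In layout, the block genes were set in a gene-poor surrounding. Within 500 kb of each there were from 46 to 52 other annotated genes, against a median of 106 for all genes on chromosomes, and 27.7% of these had 52 or fewer. Their median length was 2642 bp, against 2151 bp for all genes on chromosomes, and their median distance to the nearest gene was 3108 bp, against 1611 bp. Of the 7, 0 overlapped another annotated gene, and 5.01% of all genes on chromosomes did, so the 7 genes do not stand apart in this.

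Of the 33 genes of the interval, 32 were annotated on the plus strand, while 50.2% of all genes on chromosomes were. Among 3044 windows of 600 kb with at least 20 genes, the median share on the more frequent strand was 55.8%, and 2 windows, this one included, reached 97.0% on 1 strand. The plus strand of the block genes themselves was part of how they were chosen. Counting was by strand, so transcripts from the opposite strand of these genes were not counted.

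Some lengths recur in the interval, and some spacings are similar but not equal. These pairs were picked after the annotation was seen, and how often such spacings occur elsewhere was not counted. Solyc00g500091.1 and Solyc03g042560.3 have the same annotated length of 2782 bp, which 5 genes on chromosomes have in all. Solyc00g500353.1 is followed, 4110 bp from start to start, by Solyc00g076250.1 (803 bp), and Solyc03g042560.3, 4127 bp from start to start, by Solyc00g076250.1_1, of the same length and with the same identifier but for its suffix. Both of these 803 bp genes had 0 counts in all 4 libraries, and 13 genes on chromosomes have this length in all. Solyc00g500095.1 starts 5816 bp after Solyc00g500096.1, and Solyc03g042560.3 starts 5770 bp after its left neighbour. Whether these genes are near-identical copies was not tested here. If they are, reads that match both copies could have been left out by the required mapping quality, in either genotype, or assigned to either copy. The counts of Solyc00g500353.1, Solyc00g500095.1, Solyc00g500091.1 and Solyc03g042560.3, and their division among these genes, are uncertain to that extent. The same holds for the 0 counts of the 803 bp genes.

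Outside the 7, the gene whose pattern was most like theirs was Solyc12g007240.3 on chromosome 12 (from 1672694 to 1675515). It had 65 and 71 counts in *ddm1* against 1 and 0 in WT. The distance between its log2(CPM + 0.5) in the 4 libraries and the mean of the block genes was 0.138, smaller than that of each block gene, which ranged from 0.300 to 2.80. Of the 21282 other genes tested, 1382 were nearer to this mean than the farthest block gene. The distance takes all 4 libraries together, so a gene within it need not be near 0 in WT.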

How the data were processed

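RNA-seq was compared between 2 *ddm1* and 2 WT libraries of tomato leaves. The deposited table gives unnormalized counts for each gene. The authors trimmed single-end reads with Trimmomatic 0.38, aligned them to M82 with Hisat2, removed PCR duplicates and counted with featureCounts 2.0.0. Its header shows reverse-stranded counting over the whole gene span, with a mapping quality of at least 30, multi-mapping reads allowed and reads overlapping several genes counted for each. Intronic reads are therefore included.

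Genes were kept with filterByExpr (minimum count 10), scaled with TMM and fitted in R 4.3.3 with edgeR 4.0.16, using glmQLFit and glmQLFTest with genotype as the only term. Benjamini-Hochberg adjustment ran over all 21289 tested genes, with a threshold of 0.05. The script was tested on simulated data. CPM are counts relative to the TMM-scaled library size. DESeq2 1.42.0, other scalings, filters and thresholds, the replicate number as a block, and each library left out were the alternatives. The block genes, lists and tests were chosen with earlier results of these data known.

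Named genes are the block genes, those beside the block, the interval's called gene with the largest rise and with the largest fall (there was none), and the gene nearest in log2(CPM + 0.5). Other genes are given by position. The gene name table (assembly SLM_r2.1, names only) matched 0 of the genes on chromosomes. Library batches are not given in the sources used here, so a batch that follows the genotype cannot be told apart from it.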

Additional observations from a re-analysis of the deposited data

How the results depend on the processing

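Over all genes, edgeR called 5387 higher and 5038 lower in *ddm1*. Requiring a log2 fold change beyond 1 gave 3508 higher and 2788 lower, and a threshold of 0.01 gave 3566 higher and 3194 lower, since both remove calls by construction. Under the other alternatives the counts stayed within 1.5 times. With each library left out, a fit in which the lone library is assumed to vary like the other genotype, they ranged from 3780 to 4889 and from 3430 to 4493. Of the other genes of the interval, 4 were up-regulated. With at least 10 counts in every library 1 remained, because that filter removes genes at 0 in WT. With 6.0 to 7.2 Mb as the interval 6 were up-regulated and 3, against 0, down-regulated, as more genes were tested. With each library left out, 4 to 5 were up-regulated and 0 down-regulated.

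The replicate numbers gave no sign of pairing, with a correlation of 0.00357 between the deviations of libraries of equal number. These numbers are those of the sample titles, and the library names number the *ddm1* libraries otherwise. A fit with the replicate block called 5283 genes higher and 4828 lower in *ddm1*, and 4 and 0 in the interval.

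The summed expression of the block genes in *ddm1* (103 CPM) was 99.5 and 106 CPM with each *ddm1* library left out. It was 96.2 without Solyc00g011560.1, 93.1 without Solyc00g500091.1, 68.4 without Solyc00g500095.1, 93.5 without Solyc00g500096.1 and 67.5 without Solyc00g500353.1. In WT (0.610 CPM) it was 0 without WT replicate 1 and 1.22 without WT replicate 2. With 3 counts over both WT libraries as the floor, which is lower and by construction raises each bound, the bounds ranged from 8.56-fold for Solyc00g032030.1 to 36.0-fold for Solyc00g500091.1.

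The window of the block held 10 genes at most 3 in WT and at least 10 in *ddm1*, and 10 to 11 with each library left out. The highest of any window was then 11 without *ddm1* replicate 1 or 2, 14 without WT replicate 1 and 10 without WT replicate 2. In 1 Mb windows it held 10, and 34 windows, its own included, held as many or more, up to 12. It held 5 with at least 50 counts in *ddm1*, where the highest of any window was 7, and 5 in 300 kb windows, where the highest was 8. With 0 counts required in WT it held 9, which no other window reached. The block was chosen for counts near 0 in WT, so nothing is read from this place. With up to 10 counts allowed in WT it held 11, and 15 was the highest.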
